A study of Arabidopsis thaliana with 6 samples.

Results

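These are the 18 Arabidopsis thaliana genes with low values in dissected root meristems and clearly higher values in cells sorted from the same organ. They were chosen by their measured values: a log2 value of at most 3.5 on all 3 complete root meristem arrays and of at least 5.5 on all 3 arrays of sorted G2/M cells. The thresholds were met by 20 of the 13356 genes with a probe set of their own (0.150%), and 2 of the 20 were left out because they belong to families set aside by the same rule, STZ among the C2H2 zinc fingers and AT1G53540 among the small heat shock proteins. The meristem limit alone was met by 6771 of the 13356 genes (50.7%) and the sorted limit alone by 3770 (28.2%). A value under the meristem limit is thus common and not in itself a sign of silence. Over all 22746 probe sets 47 met the thresholds (0.207%). Of these, 25 have no gene name here and 2 name several genes, and they are described at the end. Because the values themselves picked the genes, their difference between the groups is described here and not tested.

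The samples were 6 RNA preparations of accession Col-0, each on its own ATH1 array, in 2 groups of 3 biological replicates. The sorted G2/M cells were taken by FACS, which sorts single cells by their fluorescence, out of roots with the reporter CYCB1;1-GFP, which marks cells around mitosis. The complete root meristems were microdissected, and the labels do not say whether those roots carried the reporter. No treatment, plant age or number of pooled roots is given. Sorting and dissection coincide with the groups, so handling and cell identity cannot be told apart, and in bulk RNA fewer expressing cells and less RNA per cell cannot be told apart either.

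The root meristem is the dividing zone behind the root tip, and a value there reports the transcript of a gene over all its cells together. Among the 18 genes only 3 carry a symbol. ORA47 is a transcription factor of the AP2/ERF class, known for switching on jasmonate synthesis genes after wounding. GRX480, also called ROXY19, is a plant-specific glutaredoxin that binds TGA transcription factors, and it can repress the jasmonate and ethylene defence gene PDF1.2. ZCF37 has a symbol but is given no role here. The other 15 are known in the annotation only by their locus code, so no role is stated for them.

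The values are on the log2 scale of the authors' GCRMA processing, whose lowest value, 2.27, is called the floor. On the meristem arrays the 18 genes ranged from 2.27 to 3.47, with medians of 2.76, 2.73 and 2.88 in replicates 1, 2 and 3. On the sorted arrays their medians were 6.94, 6.33 and 6.44, and the lowest single value was 5.54. In 8 of the 18 the meristem mean lay within 0.5 of the floor, and AT3G10930 stood at the floor on all 3 meristem arrays. The differences between group means ran from 2.73 to 5.40 log2 with a median of 3.86, beside a median of 0.00 over all 13356 genes. They start from low values and are not converted to folds.

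**Figure D1:**
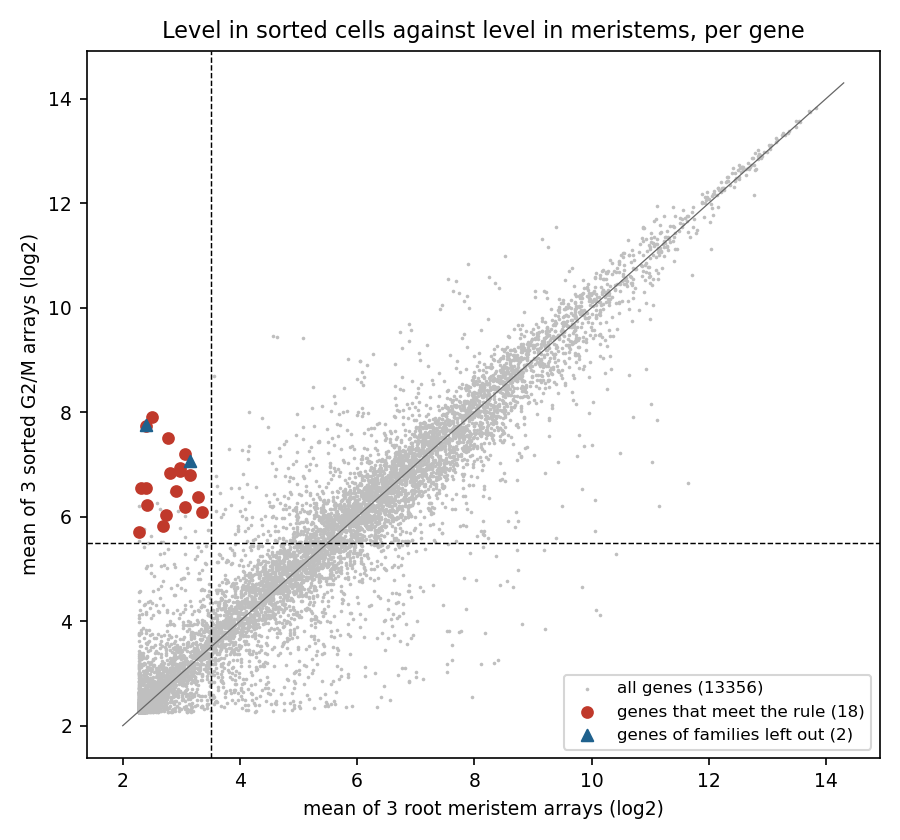
Mean log2 value over 3 sorted G2/M arrays (vertical) against the mean over 3 root meristem arrays (horizontal) for 13356 genes (grey), the 18 genes (red) and the 2 genes of families left out (blue triangles). Dashed lines mark 3.5 and 5.5 and the diagonal marks equal levels; the 18 genes lie in the upper left corner, with meristem means between 2.27 and 3.35 and sorted means between 5.70 and 7.90.

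The 2 regulators with a symbol and a known role differed in how even they were over the sorted arrays. ORA47 measured 7.19, 6.51 and 6.81 in sorted replicates 1, 2 and 3 and 2.69, 2.69 and 3.04 in the meristems. GRX480 measured 8.67, 6.39 and 7.47 in the sorted cells, with 2.79, 2.77 and 2.78 on the meristem arrays. Each gene was high on every sorted array and low on every meristem array, but the SD over the sorted arrays was 0.34 for ORA47 and 1.14 for GRX480 (n = 3 each). The mean of GRX480 over the sorted arrays, 7.51, therefore stands between replicates that lie 2.28 log2 apart, while its 3 meristem values were nearly equal. ZCF37 was likewise uneven, at 7.78, 6.17 and 7.62 in the sorted cells against 2.90, 2.97 and 3.31 in the meristems, with its second sorted array well below the other two.

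These 3 genes all had the order replicate 1, then 3, then 2, and it recurs in most of the genes with a locus code only. AT4G36500 measured 9.10, 6.70 and 7.90 in sorted replicates 1, 2 and 3 and 2.44, 2.48 and 2.59 in the meristems. AT5G10695 measured 7.50, 6.29 and 6.99 against 3.06, 2.89 and 2.98. AT4G36500 had the widest spread of the 18 over the sorted arrays and a difference between group means of 5.40, which starts within 0.5 of the floor and drops to 4.80 without sorted replicate 1. AT4G29780 measured 8.03, 7.41 and 7.74 in the sorted cells, with 2.36, 2.42 and 2.43 on the meristem arrays. AT1G23710 measured 7.19, 6.49 and 6.96 against 3.05, 3.11 and 2.74. AT4G29780 was the 1 gene of the 18 above 7 on all 3 sorted arrays, and with an SD of 0.31 its difference of 5.32 rested about equally on each.

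Other members held steady. The 3 smallest SDs over the sorted arrays were 0.10 for AT1G14200, 0.13 for AT3G10930 and 0.20 for AT2G36220. AT1G14200 measured 6.33, 6.14 and 6.18 in the sorted cells, with 2.38, 2.49 and 2.38 on the meristem arrays. AT2G36220 measured 6.73, 6.34 and 6.54 against 2.33, 2.27 and 2.37. AT3G10930 measured 5.56, 5.79 and 5.76 against 2.27 on every meristem array, so its group difference of 3.43 log2 is measured from the floor itself. In all, the range over the sorted arrays was at most 0.5 log2 in 5 of the 18 genes and above 1 log2 in 5, namely AT4G36500, GRX480, ZCF37, AT1G19020 and AT5G10695.

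The other members are given by their means. AT1G19020 averaged 6.55 ± 0.68 on the sorted arrays and 2.39 ± 0.07 on the meristem arrays (mean ± SD of 3 arrays). AT2G36950 averaged 6.80 ± 0.22 and 3.14 ± 0.09, AT5G66650 averaged 6.49 ± 0.31 and 2.91 ± 0.16, and AT5G11650 averaged 6.37 ± 0.30 and 3.29 ± 0.15. The single values of AT5G11650 were 6.70, 6.28 and 6.13 in the sorted cells and 3.20, 3.21 and 3.47 in the meristems. AT5G63130 averaged 6.04 ± 0.25 in the sorted cells. Its meristem values of 2.65, 2.30 and 3.28 were the most scattered of the set (SD 0.50), so its low side is the least even. AT5G04760 measured 6.34, 5.54 and 5.59 in the sorted cells, with 2.91, 2.52 and 2.62 on the meristem arrays.

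**Figure D2:**
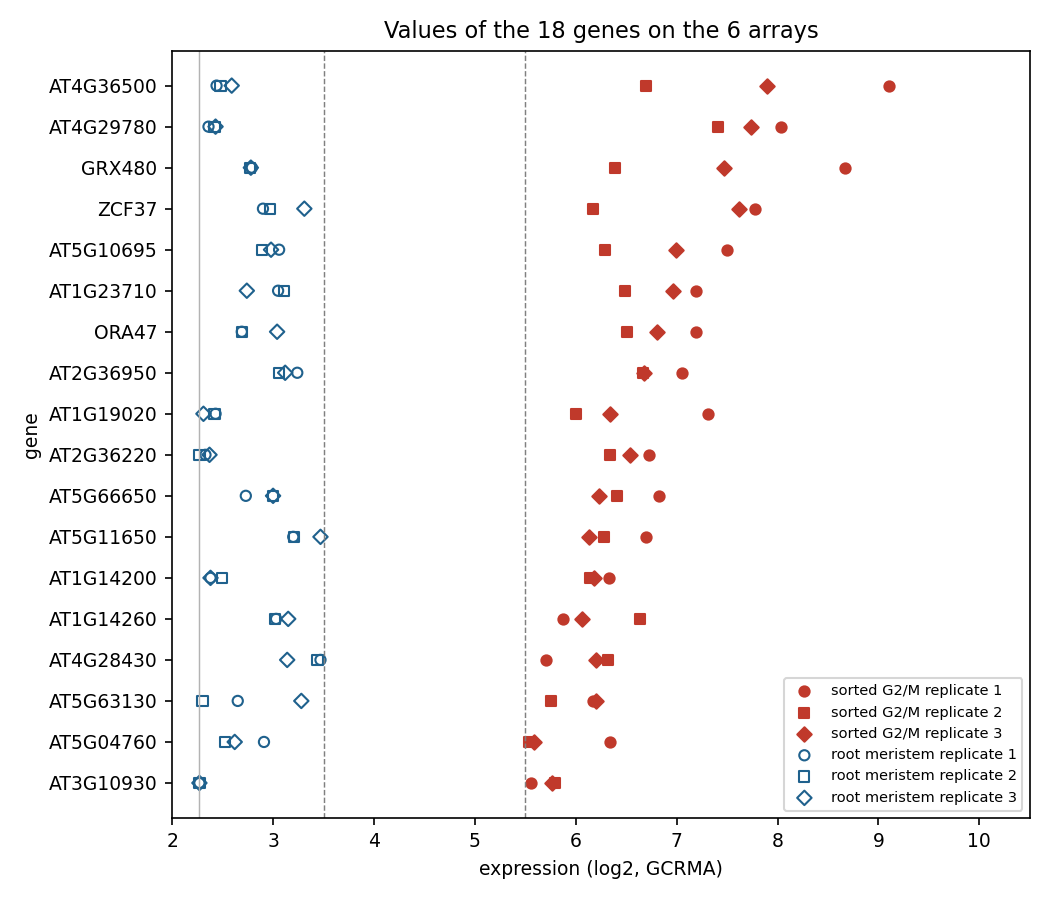
Log2 value of each of the 18 genes (rows, ordered by sorted mean) on the 3 sorted G2/M arrays (filled red) and the 3 root meristem arrays (open blue); symbol shape gives the replicate number. Dashed lines mark 3.5 and 5.5 and the grey line the floor of 2.27; sorted replicate 1 (circles) is the rightmost point in 14 of the 18 rows, and sorted replicate 2 (squares) is the leftmost of the 3 sorted points in 13.

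The rule asked for no order of the 3 sorted arrays within a gene, but it did set a lower limit on each of them. Sorted replicate 1 held the highest of the 3 sorted values in 14 of 18 genes (77.8%), and the full order replicate 1, 3, 2 appeared in 12. Of the 2458 other genes whose sorted means fell in the same range, 5.70 to 7.90, sorted replicate 1 was highest in 26.6% and sorted replicate 2 in 59.4%. The full order replicate 1, 3, 2 appeared in 20.2% of them. These 2458 genes were matched by sorted mean alone, with no limit on single sorted values or on the meristem values. The median of replicate 1 minus replicate 2 was 0.52 log2 over the 18 genes and -0.26 log2 over the 2458. Neither quantile normalization nor centring of the arrays on expressed probe sets altered the count of 14, and the other genes in range then gave 27.4% and 27.5%. Both moved the values little, with a median difference of -0.25 log2 over the 2458 under each, so the unchanged count is a weak check. Genes share arrays and are not independent replicates, so these shares carry no test. The order was not confined to the 18. In the stress lists given below, genes within 0.5 of the floor on all 6 arrays are left aside here. Of the others, PUB22, PUB23, BIK1, WRKY6, CML23, CML42, LTI30, AT5G61890, GSTU25, UGT73B5 and PDC2 had the order. OPCL1, PDF1.2, AT3G01830, CML43, WRKY22, WES1, AT2G21640, AT4G27450, AT3G27220 and AT4G24110 did not. PUB22 measured 6.14 on sorted replicate 1 and 3.94 on replicate 2, though its group means differed by 0.02 log2. AT1G23720, adjacent to AT1G23710, also had it, at 6.64 and 2.44. Whether the order is commoner in such genes was not tested.

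The measured G2/M markers had the opposite order. Of 11 listed, 5 were measured: AUR1, AUR2 and AUR3 (the Aurora kinases of mitosis), AT1G63100 and AT4G14330. All 5 were lowest on sorted replicate 1 and highest on sorted replicate 2. AUR1 measured 8.90, 9.58 and 9.36 in sorted replicates 1, 2 and 3, and AUR3 measured 6.26, 7.16 and 6.86. Summed over the 5 markers, the log2 values were 39.58, 42.78 and 41.70 in the sorted arrays and 30.17 to 30.54 in the meristems, so the label of the sorted cells held on every array. Among the 18 genes only AT1G14260, AT4G28430 and AT3G10930 were, like the markers, lowest on replicate 1 and highest on replicate 2. AT1G14260 measured 5.87, 6.64 and 6.06 against 3.03, 3.02 and 3.15 in the meristems, and AT4G28430 measured 5.71, 6.32 and 6.20 against 3.47, 3.44 and 3.14. Of the 204 other genes in the same range that limma called higher in the sorted cells, 67.2% were highest on replicate 2 and 20.1% on replicate 1. The call itself depends on the spread over the sorted arrays, so genes with a large excess on replicate 1 are more easily missed. Replicate 1 minus replicate 2 reached at most 1.28 log2 in the 204 and 5.54 log2 in the 2458. A contrast between the 204 and the 18 genes is thus partly built in, and no conclusion is drawn from it.

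**Figure D3:**
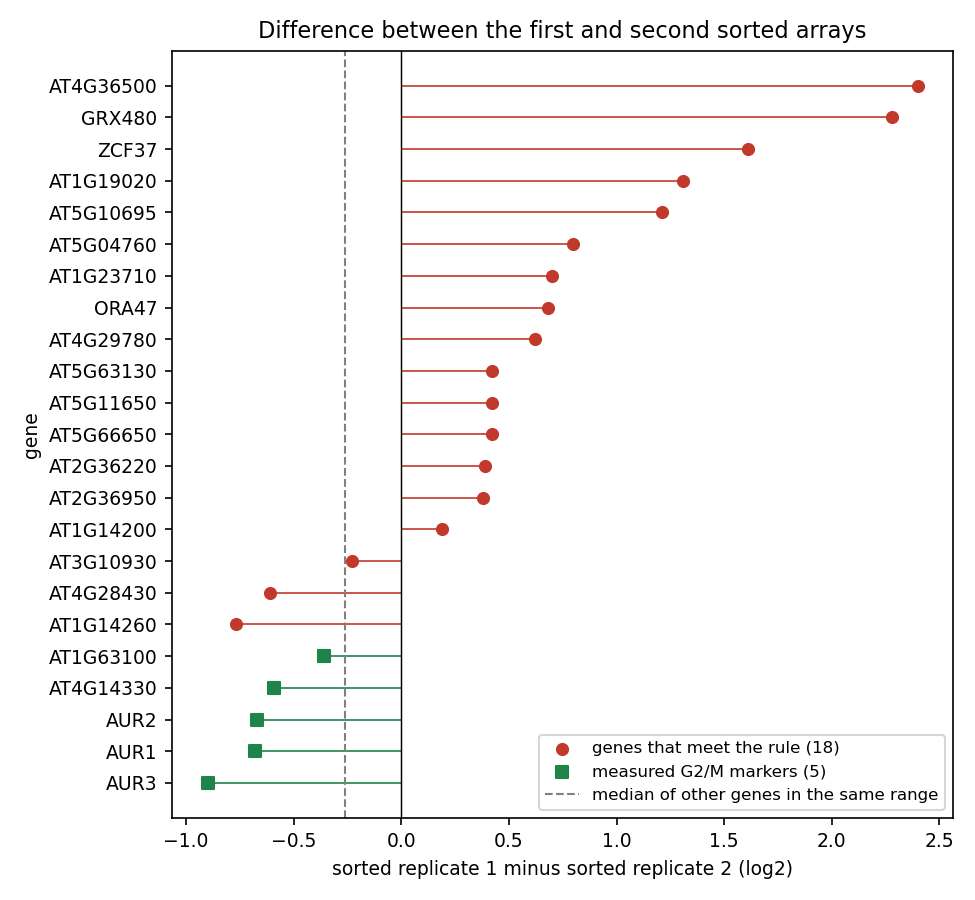
Log2 value on sorted replicate 1 minus that on sorted replicate 2 for the 18 genes (red circles) and the 5 measured G2/M markers (green squares); the dashed line is the median, -0.26, of 2458 other genes in the same range. The widest differences belong to AT4G36500 and GRX480 (2.28), and 15 of the 18 genes lie above 0 while all 5 markers lie below it.

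Control probe sets and a root hair marker also differed between the arrays. Poly-A spike-in controls had a median of 5.92 on sorted replicate 1 and of 6.43 to 7.20 on the meristem arrays, but only 2.88 and 2.83 on sorted replicates 2 and 3. Bacterial hybridisation controls had medians of 9.07, 8.68 and 8.46 on sorted replicates 1, 2 and 3 and 8.38 to 8.52 on the meristems. EXPA7, the 1 measured root hair marker of 8 listed, stood at 7.07 on sorted replicate 1, 2.42 and 2.69 on the other sorted arrays and 2.27 to 2.29 in the meristems. The 25S ribosomal RNA probe set read 12.69 to 13.10 in the sorted cells and 11.29 to 11.40 in the meristems. The excess of 3′ over 5′ signal, a sign of RNA quality, was higher on every sorted array for ubiquitin, at 1.08 log2 or more against 0.98, 0.87 and 0.78 in meristem replicates 1, 2 and 3. It overlapped between the groups for GAPDH (1.09 to 1.14 against 1.00 to 1.16) and actin (1.24 to 1.52 against 1.26 to 1.55). The part of these features in the levels of the 18 genes was not tested.

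Markers of other root tissues were few. The 2 measured cortex markers, AT1G09750 and AT1G62500, summed to 6.05 to 6.83 in the sorted cells and 11.24 to 12.05 in the meristems. The phloem marker OPS, 1 of 8 listed, differed by 0.51 log2 and was not called. The stem cell niche marker AGL42, 1 of 4 listed, ranged from 5.92 to 6.06 in the sorted cells and from 5.96 to 6.43 on the meristem arrays. RCA, a photosynthesis gene of green tissue, was at the floor on all 3 sorted arrays. Listed markers of endodermis, xylem and root cap were not analysed here because the annotation used named none of them alone on a probe set. It named no gene for 8730 of the 22746 probe sets, so a gene called unmeasured here may still be on the array.

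The thresholds decide how many genes qualify. Just inside the sorted limit lay AT5G04760, AT3G10930 and AT4G28430, whose lowest sorted values were 5.54, 5.56 and 5.71. Just outside it lay AT2G41640, AT2G20560 and AT1G05575, with lowest sorted values of 5.36, 5.30 and 5.28. At the meristem limit AT4G28430, AT5G11650 and ZCF37 were inside, with highest meristem values of 3.47, 3.47 and 3.31. AT3G62260, AT5G65990 and AT2G38160 were outside, with 3.66, 3.78 and 3.82. The nearest genes outside looked much like those inside, as AT1G05575 measured 6.13, 5.49 and 5.28 in the sorted cells and at most 2.54 in the meristems, a profile like that of AT5G04760.

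**Figure D4:**
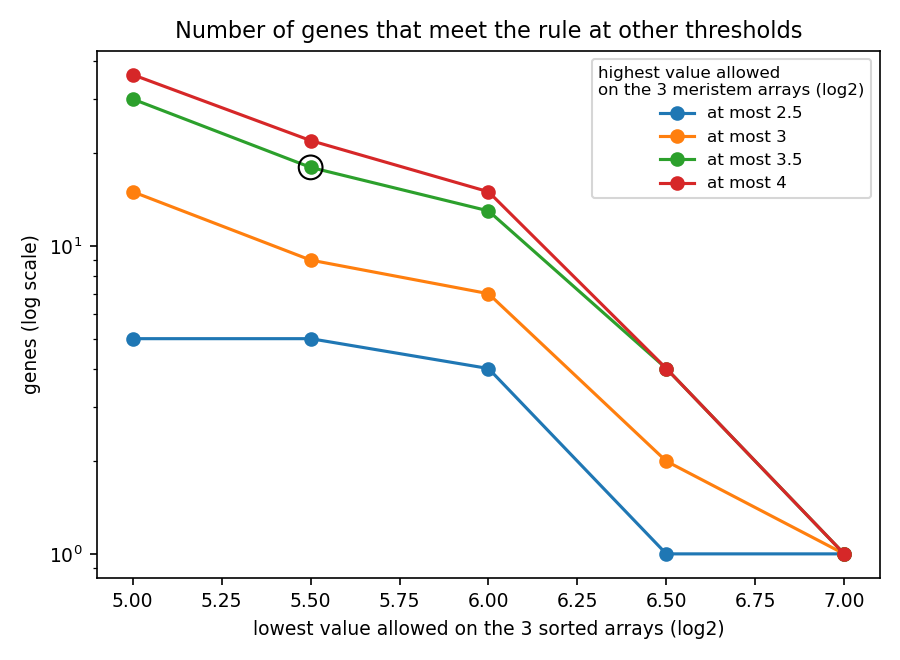
Number of genes (vertical, log scale) that meet the rule when the lowest value allowed on the sorted arrays (horizontal, log2) and the highest allowed on the meristem arrays (coloured lines) are moved. The circled point is the rule as used, with 18 genes; 30 genes qualify at a sorted limit of 5.0, 13 at 6.0, and 9 at a meristem limit of 3.0.

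With the groups exchanged, the same thresholds were met by 22 genes that were high in the meristems and low in the sorted cells, beside the 20 in this direction. Of the 2 genes of families left out, STZ measured 7.72, 7.84 and 7.73 in the sorted cells, with 2.30, 2.62 and 2.28 on the meristem arrays, and AT1G53540 measured 7.11, 6.72 and 7.37 against 3.13, 3.08 and 3.25. Neither was highest on sorted replicate 1.

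Several properties outside the expression values were compared. All 18 genes were protein coding, each was read by 1 probe set, and all 18 probe sets were of the plain type that Affymetrix names as matching a single transcript, as were 97.9% of all genes' probe sets. The genes were short: their median length in the RefSeq gene table was 1238.5 bases, from 570 for AT5G10695 to 4010 for AT5G66650, and the median of all measured genes was 2105 bases. A length below that median was found in 14 of 18. A single RefSeq transcript was listed for 14 of 18 genes (77.8%) and for 62.1% of all measured genes.

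The genes lay on all 5 nuclear chromosomes, with 7 on chromosome 1 (38.9%, beside 25.8% of all measured genes), 2 on chromosome 2, 1 on chromosome 3 (5.56% beside 20.6%), 3 on chromosome 4 and 5 on chromosome 5. The closest pair was AT1G14200 and AT1G14260 on chromosome 1, with 6 protein-coding genes between them, and every other pair of neighbours on a chromosome had at least 77 between them. AT1G14200 and AT1G14260 did not share a profile over the sorted arrays: AT1G14260 stood at 6.64 on replicate 2, where AT1G14200 had its lowest value, 6.14.

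The genes directly beside the 18 were examined next. Of 36 adjacent protein-coding genes 18 had a probe set of their own, and limma called 2 of these higher in the sorted cells and 1 lower, beside 4.44% of all probe sets called higher and 7.06% called lower. AT2G36930, beside AT2G36950, was higher by 0.66 log2 (SE 0.10, limma adjusted p = 0.0233). AT1G14270, beside AT1G14260, was higher by 0.39 (SE 0.07, limma adjusted p = 0.0321), and ALDH10A8, an aldehyde dehydrogenase gene beside ORA47, was lower by 0.14 (SE 0.01, limma adjusted p = 0.00747). With the replicate number as a block the limma adjusted p of the 3 was 0.0977, 0.128 and 0.0610, so none kept its call. Their limma adjusted p ranged over all alternatives from 5.60e-04 to 0.102 for AT2G36930, from 4.55e-04 to 0.226 for AT1G14270 and from 6.29e-04 to 0.463 for ALDH10A8. AT2G36930 lost its call without sorted replicate 3 (0.0944) or meristem replicate 1 (0.0993), 2 (0.102) or 3 (0.0825). AT1G14270 lost it without any 1 array except sorted replicate 1, and ALDH10A8 kept it whichever array was left out.

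Other genes of jasmonate, redox and further stress responses were taken from 11 lists. Of their 201 entries 34 had a probe set with that gene alone, and 2 of them were ORA47 and GRX480. Of the other 32 genes, limma called 3 higher in the sorted cells and 1 lower, and their median difference was 0.05 log2 beside 0.00 over all probe sets. The shares called among all probe sets were 4.44% and 7.06%. On all 6 arrays 11 of the 32 stayed within 0.5 of the floor.

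In the jasmonate and wounding list, OPCL1, a ligase of jasmonate synthesis, was higher by 0.65 log2 in the sorted cells (7.64 against 6.99, SE 0.07, limma adjusted p = 0.0117). The defensin PDF1.2 measured 4.97 and 4.90 and was not called (limma adjusted p = 0.466). Of the 5 genes measured from the touch and calcium list, AT3G01830 was higher by 2.00 (SE 0.25, limma adjusted p = 0.0169) and CML43 by 1.41 (SE 0.27, limma adjusted p = 0.0432). CML23 was not called (difference 1.29, limma adjusted p = 0.0770), but it was without sorted replicate 2 (1.62, limma adjusted p = 0.00678, range over alternatives 0.00122 to 0.225). Among 8 low-oxygen genes PDC2, a pyruvate decarboxylase, was lower by 1.28 (-1.28 log2, SE 0.19, limma adjusted p = 0.0240) and 7 were not called. With the replicate block the limma adjusted p was 0.0860 for OPCL1, 0.140 for AT3G01830, 0.191 for CML43 and 0.0952 for PDC2. None of the 4 was then called.

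Over all alternatives the limma adjusted p ran from 9.81e-04 to 0.0860 for OPCL1, from 0.00186 to 0.140 for AT3G01830, from 0.00398 to 0.191 for CML43 and from 7.64e-04 to 0.106 for PDC2. OPCL1 lost its call without sorted replicate 3 (0.0614) or meristem replicate 2 (0.0647), and AT3G01830 without sorted replicate 2 (0.0571) or meristem replicates 1 (0.0752) or 2 (0.0824). CML43 lost it without any 1 array except meristem replicate 1, and PDC2 without any 1 array except sorted replicate 1.

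None of 2 measured AP2/ERF genes (ORA47 was counted with the jasmonate genes), 3 WRKY factors, 3 detoxification genes (besides GRX480), 4 genes of pattern-triggered immunity, 2 of abscisic acid and drought and 3 of auxin response was called. The smallest p in each of these lists belonged to AT5G61890 (difference 0.88, limma adjusted p = 0.370), WRKY22 (0.43, limma adjusted p = 0.0548), the glutathione transferase GSTU25 (-0.85, limma adjusted p = 0.124) and the ubiquitin ligase PUB23 (1.23, limma adjusted p = 0.0932). In the last 2 lists they were LTI30, a dehydrin (2.29, limma adjusted p = 0.233), and WES1, an enzyme that conjugates auxin (-0.62, limma adjusted p = 0.249). LTI30 measured 10.69, 7.44 and 8.65 in sorted replicates 1, 2 and 3, and its difference was 1.40 without sorted replicate 1 and 4.05, then called (limma adjusted p = 0.0420), with the presence of spike-ins as a block, a setting chosen after seeing the data. Over all alternatives the limma adjusted p of LTI30 ran from 0.00849 to 0.483. The difference of AT5G61890 was 0.45 without sorted replicate 1 and 1.75 with the spike-in block, and that of WES1 was -0.38 without sorted replicate 2, all uncalled. PUB23 was called without sorted replicate 2 (1.55, limma adjusted p = 0.0207, range over alternatives 0.00181 to 0.263). WRKY22 was called with centring of the arrays (0.45, limma adjusted p = 0.0331, range over alternatives 0.00992 to 0.202).

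**Figure D5:**
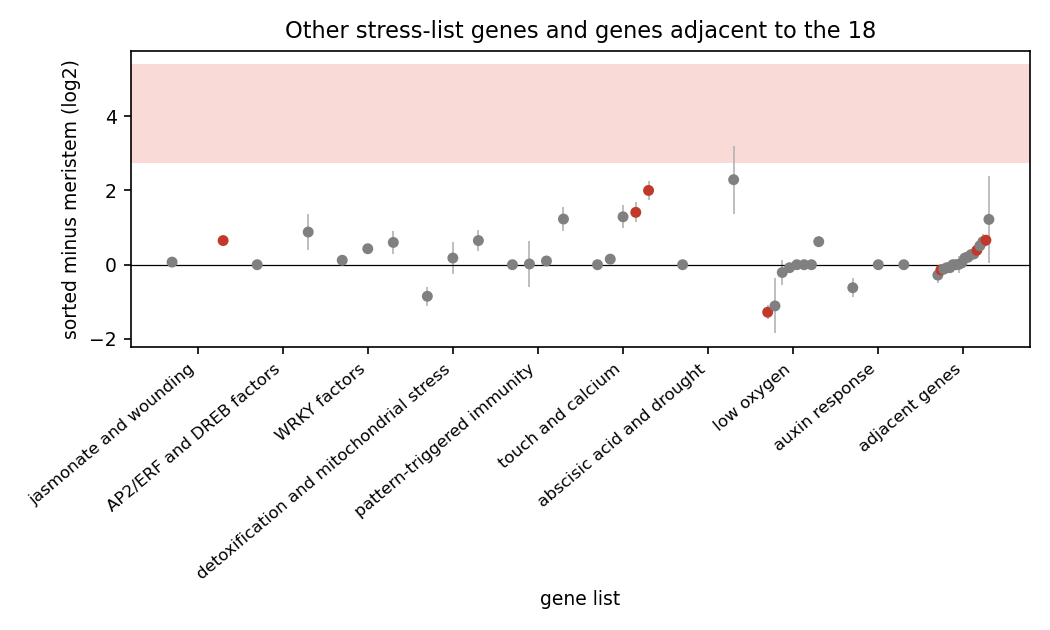
Sorted minus meristem difference (log2, with the limma SE as bars) for 32 other genes of the stress and hormone lists and for the 18 measured genes adjacent to the members; red points were called at an adjusted p under 0.05. The pink band spans the differences of the 18 genes, 2.73 to 5.40. No point lies in it, though the bar of LTI30 (2.29, SE 0.92) reaches into it. The rule picked the 18 genes by these values, so the gap to the other genes carries no test.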

How the data were processed

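Each of 6 ATH1 arrays held 1 RNA sample: 3 of sorted G2/M cells and 3 of root meristems. The deposited log2 values, 1 per probe set, were made by the authors with GCRMA, per the submitters' processing notes; its version is not given in the sources used here. GCRMA pulls weak signals to a floor (2.27, held by 28.2% of values), so a difference that starts from a low value is uncertain. Arrays have no read depth, and 3 per group limits precision.

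After removal of 64 control probe sets, 22746 were left. The platform annotation named 1 gene for 13513, several for 503 and none here for 8730; the 13513 stood for 13356 genes, by the highest-mean probe set. Names and gene order come from RefSeq assembly TAIR10.1, matched by gene identifier for 13436 of the 13513; the files name no build, so no coordinates are printed. The members and lists were chosen with earlier results of these data known. Every member is named. Values on all arrays are given for the highest members of each role group, those with the smallest or largest SD and those nearest a threshold; AT1G14260 was added after its values were seen. From each list the text names up to 3 called genes with the largest change, or the gene with the smallest p, and PDF1.2 and CML23 besides. PUB22, WRKY6, BIK1, CML42, UGT73B5, AT2G21640, AT4G27450, AT3G27220 and AT4G24110 are named only for their order over the sorted arrays.

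Tests used limma 3.58.1 in R 4.3.3 (lmFit and eBayes, no trend), with Benjamini-Hochberg correction across the 22746 probe sets and a threshold of 0.05, and were tried on simulated data first. A p here reflects array-to-array spread within the groups. Deviations from the group means correlated weakly between same-numbered arrays (r = 0.12, 0.25 and 0.11), beside -0.23 to 0.05 between unlike-numbered ones. Deviations cancel out within each group, so a higher r between same-numbered arrays forces a lower one between the others. Whether same-numbered arrays were paired is thus not settled. The replicate number was used as a block in an alternative fit, and blocked values are given. Calls, the shares of 4.44% and 7.06% and the 204 genes called higher come from the fit without the block. With the block only 79 of the 22746 probe sets were called higher and 156 lower. Alternatives covered thresholds, scaling, priors, weights, a low-value filter, the block and leaving out each array. Promoter motifs were planned and are not analysed here.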

Additional observations from a re-analysis of the deposited data

Results flagged for a closer look

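Probe sets outside the named genes also met the thresholds. Of the 8730 probe sets with no gene name here, 25 (0.286%) lay at or below 3.5 on all 3 meristem arrays and at or above 5.5 on all 3 sorted arrays, with sorted means from 5.65 to 9.17 and meristem means from 2.27 to 3.31. A further 2 probe sets that name several genes did so. The probe set shared by AT3G44870 and FAMT measured 10.41, 7.50 and 8.47 in sorted replicates 1, 2 and 3 and 2.97, 3.17 and 3.17 in the meristems, and the one shared by AT1G59860 and AT1G07400 averaged 6.27 over the sorted arrays against 2.35 over the meristem arrays. These were signals in data that the comparisons above leave out, and no explanation was tested.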

How the results depend on the processing

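The 18 genes numbered 18 again with quantile normalization, with centring and with the lowest-mean probe set, and 22 with a meristem limit of 4.0. Each of the 18 had 1 probe set, so the choice of the lowest-mean probe set could not remove any of them. They numbered 30 with a sorted limit of 5.0, 9 with a meristem limit of 3.0, and 65, 25 and 31 when sorted replicate 1, 2 or 3 stood alone; the last 3 were chosen after seeing the data. Without any 1 array the count was 18 to 27, and it can only grow there, since fewer arrays must pass. Called probe sets numbered 2614. There were 1249 with a trended robust prior, 235 with the replicate block (79 higher, 156 lower), 9114 with array weights, whose estimation did not converge, and 959 to 3383 without any 1 array. The share of higher calls rose from 38.6% to 55.1% with array weights, to 53.6% with the spike-in block and to 51.8% without sorted replicate 1. The 4 calls among list genes became 1 with the trended prior, 0 with the replicate block, 15 with array weights and 0 to 3 without any 1 array. With the block, limma's adjusted p for the 5 G2/M markers rose to between 0.0539 and 0.130, past the threshold, while the cortex marker AT1G09750 kept its call (0.0263). With the low-value filter, which tests fewer probe sets, GSTU25 (0.0320), PUB23 (0.0193) and CML23 (0.0145) were called by limma's adjusted p. The cause was not tested.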
